A study of Homo sapiens with 8 samples.

Results

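The genes described here are 7 keratins (KRT5, KRT7, KRT8, KRT17, KRT18, KRT19 and KRT80) and vimentin (VIM), 8 of the 18555 genes in a count table of RNA-seq libraries from cells labelled HepG2, an established human liver cancer line. They were taken by symbol as intermediate filament genes that bear on cell type, and they were chosen by their measured levels in these same 6 libraries. Levels are therefore given as a description, with no test. The study asked how XBP1s, the active form of an unfolded protein response factor, acts in liver cancer cells. In the siNC group (3 libraries) the cells had received Allstar control siRNA, and in the siXBP1 group (3 libraries) an siRNA specific for XBP1. Both groups were given 30 nM thapsigargin for 3 hours, 2 days after transfection, so no RNA-seq group was free of this drug, an inhibitor of the pump that fills the endoplasmic reticulum with calcium. All cells were of 1 line, and the labels do not say whether the replicates were separate cultures, so p-values measure only the spread between these libraries, which may be technical.

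Keratins are the intermediate filament proteins of epithelial cells. Each filament is built from pairs of an acidic type I keratin and a basic type II keratin, and which pairs a cell makes depends on the epithelium. Hepatocytes make almost only KRT8 with KRT18, bile duct cells add KRT7 and KRT19, and basal or squamous cells make KRT5 with KRT14. KRT17 is typical of skin appendages and of stressed, growing or cancerous epithelium. Vimentin, a type III protein that assembles without a partner type, is the filament of mesenchymal cells and of many cell lines in culture.

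XBP1 mRNA was lower in every siXBP1 library, at 288 ± 11.4 CPM (CPM, counts scaled to an equal library total, mean ± SD, n = 3) against 518 ± 29.5 CPM in siNC. Its log2 fold change was -0.84 (SE 0.08, edgeR adjusted p = 0.0331), and the adjusted p lay between 0.0327 and 0.475 when each library was left out in turn. Library totals ran from 38209972 to 38890070 counts, so that 3 counts, taken as the detection floor, equal 0.0771 to 0.0785 CPM (a limit for counting error only, and too low where both mates of a read pair were counted). The libraries differed mainly along a first principal component with 59.1% of the variance over 11528 genes. It placed siNC-1 (score 0.643) and siXBP1-3 (-0.648) at opposite ends, and gave the remaining 4 scores from -0.29 to 0.239. In bulk RNA, fewer cells of a type and less RNA per cell cannot be told apart.

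The label of a liver line was set against fixed lists of cell type markers, which were chosen with earlier results of these data known. Of 13 hepatocyte markers 7 had a row in the table, and 0 of them reached a mean of 1 CPM. The 6 without a row, among them ALB, APOA1, APOB and TTR, were not analysed here. The summed level of the 7 was 0.463 to 0.746 CPM in siNC and 0.877 to 1.35 CPM in siXBP1, ranges that did not overlap but rest on few counts. The groups overlapped for each of the 7 alone, and only 1 of them had enough counts to be tested. Of all tested genes, 5.01% had higher CPM in siXBP1 without overlap. AFP had 0, 2 and 0 counts in siNC and 0, 6 and 2 in siXBP1, and HNF4A, a transcription factor of hepatocytes, had a mean of 0.385 CPM. The simple epithelial list held 5 of 12 genes at 1 CPM or more, with the cell surface mucin gene MUC1 at 90.3 CPM, while the adhesion genes CDH1 and EPCAM stayed at means of 0.380 and 0.0257 CPM. The basal and squamous list held 7 of 12, with SFN (231 CPM), ITGB4 (116 CPM) and KRT16 (44.2 CPM) the highest, but the basal regulator TP63 was at 0.644 CPM. The mesenchymal list held 9 of 12, among them fibronectin (FN1) at 995 CPM and N-cadherin (CDH2) at 167 CPM. On the same list SPARC, THY1 and COL1A2 stayed at means of 0.134, 0.0517 and 0.0174 CPM. Of the leukocyte and endothelial list 2 of 9 reached 1 CPM, the lysosomal macrophage marker CD68 (41.0 CPM) and the endothelial cadherin CDH5 (7.07 CPM). PTPRC, the common leukocyte antigen, was at 0.492 CPM and the endothelial PECAM1 at 0.639 CPM. These hepatocyte markers were thus at means of no more than 0.385 CPM in cells labelled HepG2. The identity of the line was not tested beyond these lists, and HepG2 is used below only as the label.

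The abundant keratins stood at the ends of the keratin gene clusters (GRCh38). On chromosome 12, which holds the type II genes and the type I gene KRT18, 21 keratins had a row and 6 had a mean of at least 1 CPM. In order of position, KRT80, KRT7, KRT86 and KRT81 came first and KRT8 and KRT18 last. The other 15, KRT5 among them, lay between these ends, and none exceeded 0.566 CPM in any library (KRT83). On chromosome 17, with the other type I genes, 7 of 18 keratins reached 1 CPM. KRT14, KRT16 and KRT17 were the last of the cluster, after KRT9, KRT15, KRT34 and KRT10 at earlier positions, and the highest value among the other 11 was 0.825 CPM, for KRT19. Of 55 keratin genes named in RefSeq, 16 had no row and were not analysed here.

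**Figure D1:**
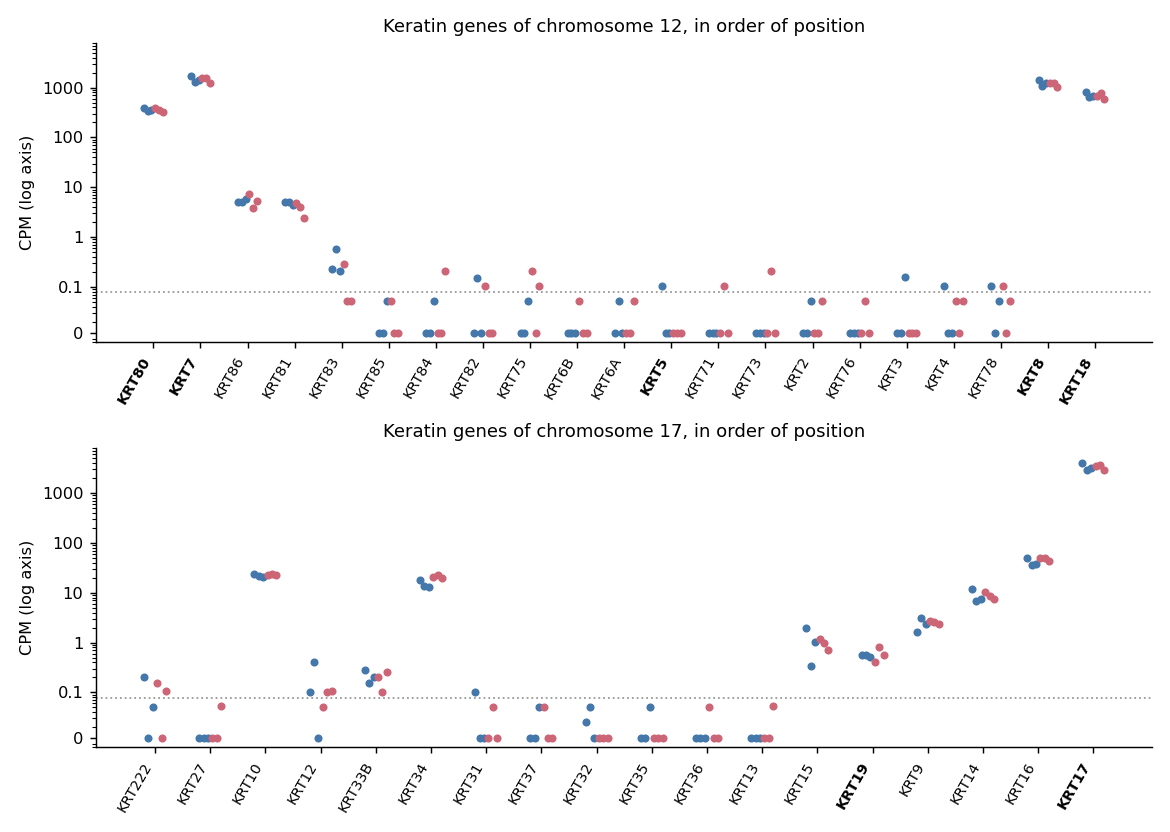
CPM on a log axis for the keratin genes of chromosomes 12 and 17, in order of position, with 1 point per library (blue siNC, red siXBP1), counts of 0 drawn at the mark 0, a dotted line at 3 counts and the genes described here in bold. On chromosome 12 the genes that average 1 CPM or more sit at both ends of the cluster, with 15 genes below that level between them.

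Among the type II keratins, KRT7, KRT8 and KRT80 were abundant and KRT5 was not detected above the floor in 5 of 6 libraries. CPM are not divided by transcript length, so that each gene is compared across libraries and the genes are not ranked against one another. KRT7 (gene ID 3855, chromosome 12, 52233243 to 52255853), a keratin of ducts and glands, had 1734, 1303 and 1450 CPM in siNC and 1534, 1592 and 1221 CPM in siXBP1. The groups overlapped, with siNC-1 the highest and siXBP1-3 the lowest of the 6 libraries.

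KRT8 (gene ID 3856, chromosome 12, 52897191 to 52949860), the general type II keratin of simple epithelia, had 1426, 1084 and 1232 CPM in siNC and 1260, 1254 and 1013 CPM in siXBP1. KRT80 (gene ID 144501, chromosome 12, 52168996 to 52192014), found in many epithelia, had 394, 336 and 348 CPM in siNC and 390, 353 and 330 CPM in siXBP1. For both genes siNC-1 was the highest and siXBP1-3 the lowest library, and the groups overlapped. KRT5 (gene ID 3852, chromosome 12, 52514575 to 52520394), the type II keratin of basal cells, had 4 counts in siNC-1 and 0 in each of the other 5 libraries. If counts were independent, a count of 0 would allow up to 0.0785 CPM, and the limit is higher where both mates of a pair were counted. No fold change is given.

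Of the type I keratins, KRT17 and KRT18 were abundant and KRT19 was low. KRT17 (gene ID 3872, chromosome 17, 41619442 to 41624575) had 3938, 2954 and 3176 CPM in siNC and 3483, 3695 and 2941 CPM in siXBP1. KRT18 (gene ID 3875, chromosome 12, 52948855 to 52952906), the partner of KRT8, had 822, 655 and 684 CPM in siNC and 682, 773 and 595 CPM in siXBP1. Again siNC-1 was the highest and siXBP1-3 the lowest library for both. KRT19 (gene ID 3880, chromosome 17, 41523617 to 41528308), the keratin of bile ducts that lacks most of the tail domain, had 22, 22 and 20 counts in siNC and 16, 32 and 22 in siXBP1. Its means were 0.550 ± 0.0269 and 0.606 ± 0.206 CPM, above the floor but too low to resolve a modest difference.

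Some of these counts may include reads of similar or overlapping genes. In RefSeq the spans of KRT8 and KRT18 overlap by 1006 bases, and how the counting assigned reads there is not given in the sources used here. KRT17 closely resembles KRT14 and KRT16, and KRT8 and KRT18 have many processed pseudogenes. The 6 keratin pseudogenes with a row had at most 43 counts in a library.

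Vimentin (VIM, gene ID 7431, chromosome 10, 17228241 to 17237593) had 1238, 1117 and 1146 CPM in siNC and 1223, 1250 and 1082 CPM in siXBP1. Its highest library was siXBP1-2 and its lowest siXBP1-3, so the siXBP1 libraries enclosed all siNC libraries. The antisense gene VIM-AS1 had 94 to 125 counts per library, small beside the VIM counts, and without a stated strand setting reads of the 2 genes cannot be told apart with certainty.

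RefSeq promoter windows of 300 bases, from 250 before to 50 after a transcript start (GRCh38.p14), were found for 3 of the 8 genes. They are shown 5′ to 3′ on the gene's strand, because they set the detected genes KRT8 and VIM beside KRT5, which lay at the floor. Capitals mark any match, on either strand, to GGGCGG (the GC box), TATAAA (the TATA box), TGANTCA (the AP-1 site) or CCACG (the last part of the ER stress element, which ATF6 and XBP1 can bind). VIM lies at chr10:17227991-17228290 (plus strand), KRT8 at chr12:52926420-52926719 (minus strand) and KRT5 at chr12:52520345-52520644 (minus strand). KRT8 has several annotated starts, and its window covers only 1 of them.
VIM: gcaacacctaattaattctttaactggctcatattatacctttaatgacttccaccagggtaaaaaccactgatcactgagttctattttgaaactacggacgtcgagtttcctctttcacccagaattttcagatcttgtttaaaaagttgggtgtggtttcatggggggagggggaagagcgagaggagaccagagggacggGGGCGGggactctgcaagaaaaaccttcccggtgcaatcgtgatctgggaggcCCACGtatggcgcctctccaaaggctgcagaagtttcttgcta
KRT8: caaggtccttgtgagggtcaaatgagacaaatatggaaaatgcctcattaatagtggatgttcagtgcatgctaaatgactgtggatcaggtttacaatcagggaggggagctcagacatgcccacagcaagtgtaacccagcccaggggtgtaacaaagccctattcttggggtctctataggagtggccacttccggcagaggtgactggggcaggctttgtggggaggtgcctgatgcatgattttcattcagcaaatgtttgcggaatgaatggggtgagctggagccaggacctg
KRT5: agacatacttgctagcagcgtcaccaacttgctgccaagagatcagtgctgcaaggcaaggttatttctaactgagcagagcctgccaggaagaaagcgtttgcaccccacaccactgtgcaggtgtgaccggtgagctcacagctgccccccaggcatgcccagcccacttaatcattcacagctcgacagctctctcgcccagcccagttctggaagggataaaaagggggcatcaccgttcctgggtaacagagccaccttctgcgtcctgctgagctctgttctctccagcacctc
The VIM window held 1 GC box, starting 46 bases before the annotated start, and 1 CCACG, 7 bases after the start position, with 10 CpG and a GC content of 48.0%. The KRT8 window, with 2 CpG and 50.7% GC, and the KRT5 window, with 7 CpG and 56.3% GC, held none of the 4 motifs. Of 35116 RefSeq windows of this length, 45.0% held GGGCGG, 11.5% TATAAA, 7.71% TGANTCA and 38.1% CCACG, and the medians were 14 CpG and 58.7% GC. These matches describe the letters in the windows and are no evidence of binding.

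**Figure D2:**
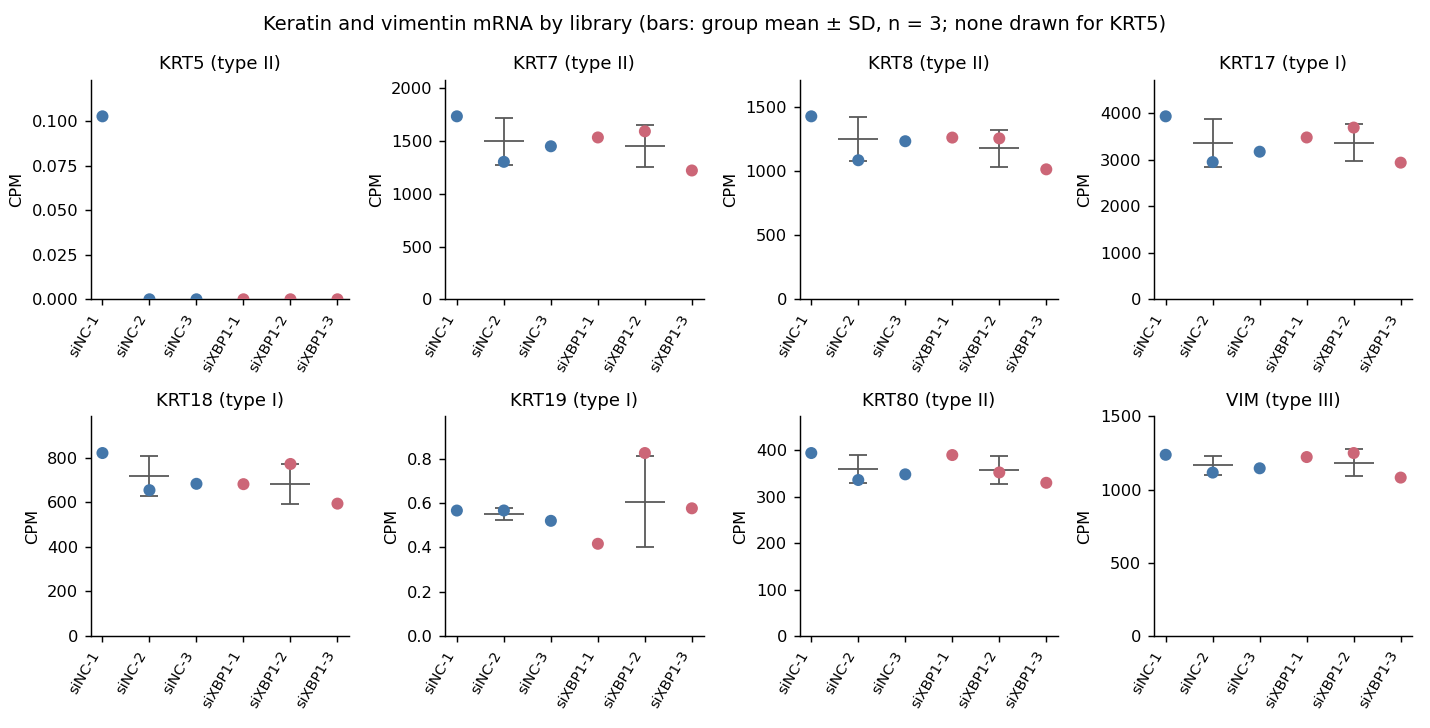
CPM of the 8 genes in each library (points, blue siNC and red siXBP1; axes start at 0 and differ between panels), with the group mean ± SD (n = 3) as bars for all but KRT5. For every abundant keratin siNC-1 is the highest point and siXBP1-3 the lowest, and no gene separates the groups.

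KRT7, KRT8, KRT17 and KRT18 varied together from library to library, and over a wider range than vimentin, a description without a test. The range of KRT80 was close to that of vimentin. The highest library exceeded the lowest by a factor of 1.42 for KRT7, 1.41 for KRT8, 1.38 for KRT18 and 1.34 for KRT17, but 1.19 for KRT80 and 1.16 for VIM. The coefficient of variation over 6 libraries was 11.7% to 12.9% for KRT7, KRT8, KRT17 and KRT18, 7.60% for KRT80 and 5.98% for VIM. The median over the 2286 tested genes with at least 100 CPM was 8.63%, so these 4 keratins lay above it and KRT80 and VIM below it. All 5 abundant keratins were highest in siNC-1 and lowest in siXBP1-3, which was true of 14.3% of the 14337 genes tested. These are the libraries at the ends of the first component, and the part of whatever sets that component in the keratin values was not tested.

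**Figure D3:**
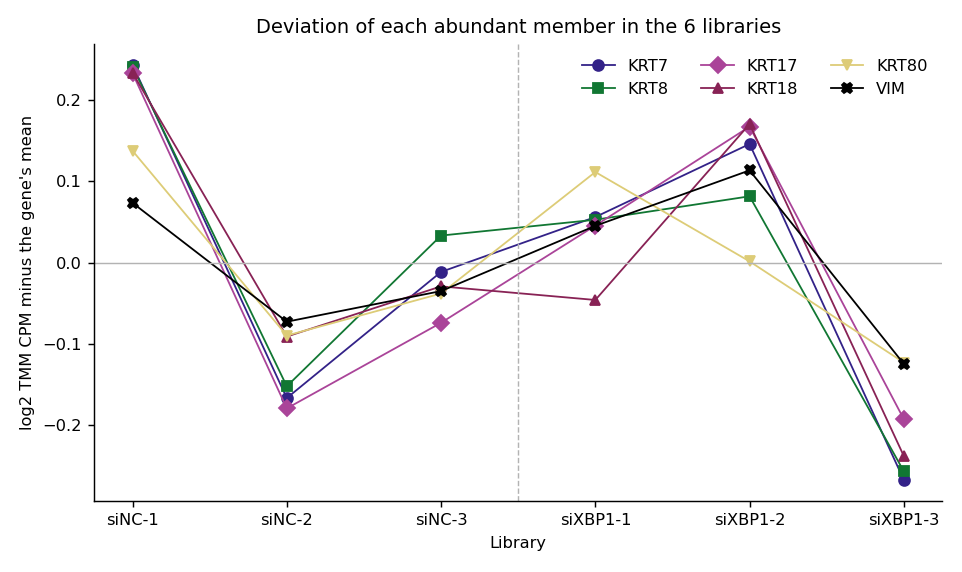
Deviation of log2 CPM (TMM scaled) from the gene's mean over the 6 libraries for the 6 abundant genes, with lines joining the points of a gene only to guide the eye. The keratins KRT7, KRT8, KRT17 and KRT18 reach 0.23 to 0.24 in siNC-1 and fall to between -0.27 and -0.19 in siXBP1-3, and VIM stays between -0.12 and 0.11.

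Ratios between the abundant keratins KRT7, KRT8, KRT17 and KRT18, taken within a library, varied less than their levels. KRT8 to KRT18, the simple epithelial pair, had ratios of 1.73, 1.65 and 1.80 counts in siNC and 1.85, 1.62 and 1.70 in siXBP1. KRT7 to KRT8 had 1.22, 1.20 and 1.18 in siNC and 1.22, 1.27 and 1.21 in siXBP1. KRT17 to KRT18 had 4.79, 4.51 and 4.65 in siNC and 5.11, 4.78 and 4.95 in siXBP1. The coefficients of variation of these ratios were 4.98%, 2.51% and 4.41%, and in all 3 the groups overlapped. KRT80 to KRT8 varied by 6.78%, from 0.277 in siNC-1 to 0.326 in siXBP1-3. KRT7 to KRT19, which rests on the few KRT19 counts, varied by 25.0%, more than either gene alone.

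The 7 keratins together took 0.831%, 0.633% and 0.689% of all counts in siNC and 0.735%, 0.767% and 0.610% in siXBP1. Within these counts KRT17 took 47.36%, 46.64% and 46.09% in siNC and 47.39%, 48.20% and 48.21% in siXBP1, so that the groups did not overlap, with siNC-1 and siXBP1-1 close together. The CPM of KRT17 did overlap, and among all tested genes the CPM of 8.75% did not. The other shares overlapped between groups, with KRT7 at 20.02% to 21.05%, KRT8 at 16.4% to 17.9%, KRT18 at 9.28% to 10.3% and KRT80 at 4.60% to 5.41%. The ratio of type II to type I counts among them was 0.762 ± 0.0203 in siNC and 0.735 ± 0.0259 in siXBP1 (SD, n = 3 each). Vimentin to the 7 keratins had ratios of 0.149, 0.176 and 0.166 in siNC and 0.166, 0.163 and 0.177 in siXBP1. It was lowest in siNC-1, where the keratins were highest, and the groups overlapped. This ratio varied by 6.23%, about as much as VIM itself.

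**Figure D4:**
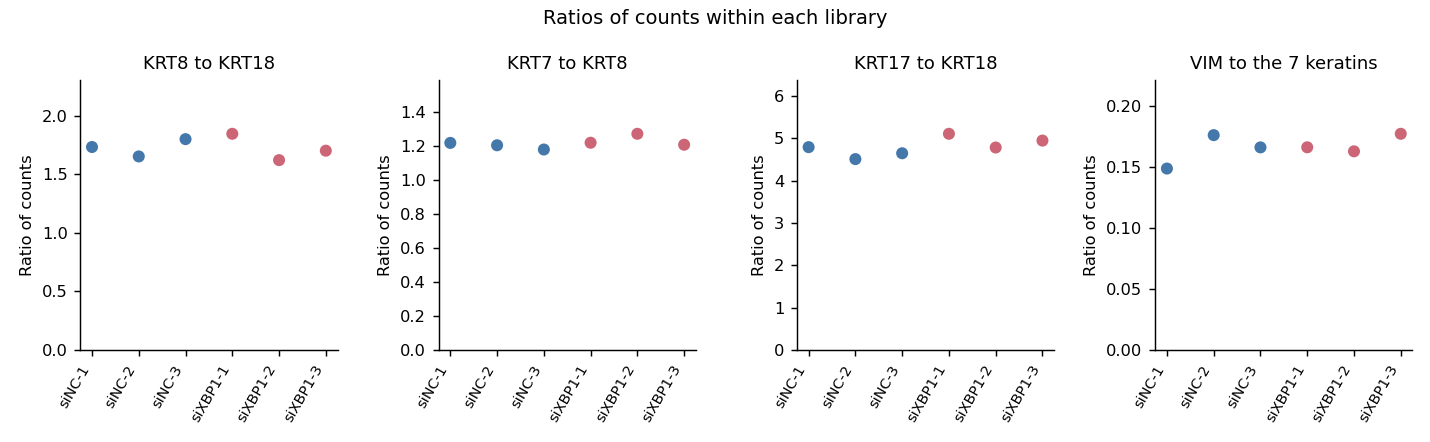
Ratios of raw counts within each library (points, blue siNC and red siXBP1, axes from 0). KRT8 to KRT18 stays between 1.62 and 1.85 and vimentin to the 7 keratins between 0.149 and 0.177, with both groups in the same range.

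Lowering XBP1 under thapsigargin was not followed by a detectable change in any of these genes. KRT5 did not pass the filter on low counts, and of the other 7 genes edgeR's quasi-likelihood test called 0 (adjusted p = 1.00 for each), where 0.00697% of all tested genes were called. At an unadjusted p under 0.05 the count was 0 as well, where 3.61% of tested genes passed, and DESeq2 called 0, where it called 0.118% of 13513 genes. With 7 genes, counts of 0 are close to these shares. The groups did not overlap for 0 of the 7, against 8.75% of all tested genes. Of the 7 estimates 3 were higher and 4 lower in siXBP1, with a median log2 fold change of -0.0067, beside 0.0096 over all tested genes.

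The log2 fold change was -0.043 (SE 0.13) for KRT7, -0.083 (SE 0.12) for KRT8 and -0.0067 (SE 0.10) for KRT80. Expressed as siXBP1 levels in percent of siNC, the 95% intervals of these type II keratins were 79.3% to 119%, 78.2% to 114% and 85.6% to 116%. Among type I keratins it was 0.010 (SE 0.12) for KRT17 and -0.073 (SE 0.12) for KRT18, with intervals of 83.2% to 122% and 78.6% to 115%. VIM had 0.025 (SE 0.09) and an interval of 88.9% to 116%. Over these 6 genes the intervals reached no lower than 78.2% and no higher than 122% of the siNC level. KRT19, with its few counts, had 0.14 (SE 0.43) and an interval of 56.6% to 215%.

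Without siNC-1 and siXBP1-3 together, all 7 estimates were above 0, from 0.12 for KRT80 to 0.23 for KRT17, and edgeR called 0 of them (smallest adjusted p = 0.0766, for KRT17), where 4.87% of 14416 genes were called. The unadjusted 95% intervals of KRT7 (0.025 to 0.35) and KRT17 (0.075 to 0.39) lay above 0 in that fit of 2 against 2 libraries. These 2 of 7 genes had an unadjusted p under 0.05, as did 18.3% of all genes in it. The estimates of KRT7, KRT8, KRT18 and KRT80 thus had the opposite sign to those over 6 libraries, and their direction depended on these 2 libraries.

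**Figure D5:**
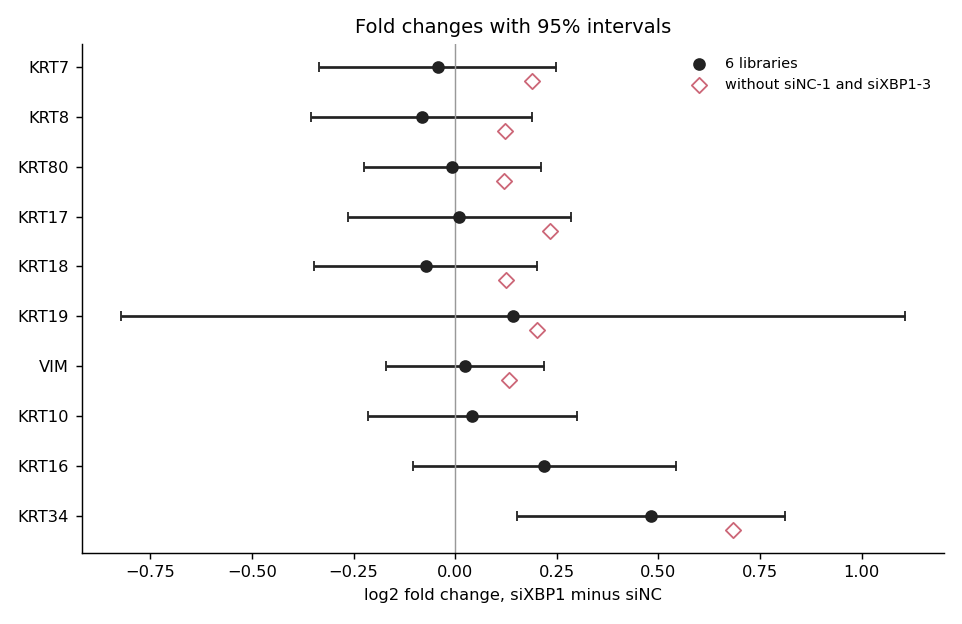
Log2 fold changes of siXBP1 against siNC with 95% intervals (edgeR, 6 libraries, black) for the 7 tested genes and 3 other keratins, and estimates without siNC-1 and siXBP1-3 (open diamonds, not computed for KRT10 and KRT16). The intervals of the 7 genes include 0, and that of KRT34 runs from 0.15 to 0.81 before any adjustment for the number of genes.

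The rest of the keratin family was examined in the same fit. Of 32 other keratins with a row, 21 had at most 8 counts in every library and 8 were tested, with 5 estimates higher and 3 lower. edgeR called 0 of the 8, DESeq2 called 0, and 1 had an unadjusted p under 0.05, against 0.00697%, 0.118% and 3.61% of all tested genes. That gene was KRT34, a type I hair keratin, which had 17.9, 13.9 and 13.3 CPM in siNC and 21.1, 22.4 and 19.3 CPM in siXBP1. All siXBP1 libraries lay above all siNC libraries, as for 5.01% of tested genes. Its log2 fold change was 0.48 (SE 0.15, edgeR adjusted p = 1.00). KRT34 passed with the first component as a covariate (0.55, edgeR adjusted p = 0.00527), a fit that called 172 genes, 1.2% of those tested. It also passed without siNC-1 and siXBP1-3 (0.68, edgeR adjusted p = 0.00153), a fit that called 702 genes, 4.87%. The component and the choice of these 2 libraries came from these same data, so neither fit gives independent support. KRT34 did not pass with DESeq2 (adjusted p = 0.611) or with edgeR and the replicate block (adjusted p = 0.740). Nor did it pass in any of the 6 fits without 1 library (0.39 to 0.62, edgeR adjusted p from 0.973 to 1.00).

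KRT16, a type I keratin of activated keratinocytes, had 49.8, 35.3 and 37.6 CPM in siNC and 50.4, 48.8 and 43.4 CPM in siXBP1, a log2 fold change of 0.22 (SE 0.14). KRT10, a type I keratin of differentiating epidermis, had 22.3 ± 1.75 and 22.9 ± 0.529 CPM (n = 3 each). In both the groups overlapped.

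Other intermediate filament genes and the proteins that anchor filaments were given as lists chosen with earlier results known. Of 14 other intermediate filament genes 8 were tested, with 3 estimates higher, 5 lower and a median log2 fold change of -0.06. Of these 8, edgeR called 0, DESeq2 called 0 and 0 had an unadjusted p under 0.05. Over all tested genes the shares were 0.00697%, 0.118% and 3.61%, and with 8 genes counts of 0 are near them. The nuclear lamin gene LMNA had 904 ± 125 CPM in siNC and 861 ± 98.4 CPM in siXBP1, and LMNB2 had 97.4 ± 3.56 and 87.4 ± 6.18 CPM (log2 fold change -0.16, SE 0.09). SYNM, whose protein joins vimentin filaments, had 52.4 ± 6.22 and 53.2 ± 1.20 CPM, and NES, another partner of vimentin, 36.2 ± 3.18 and 35.1 ± 3.81 CPM.

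Of 25 genes for filament-binding and desmosome proteins 20 were tested, with 9 estimates higher, 11 lower and a median of -0.02. edgeR and DESeq2 called 0, and 0 had an unadjusted p under 0.05, against 0.00697%, 0.118% and 3.61% of all tested genes. With 20 genes, counts of 0 are near these shares. The linker plectin (PLEC) had 1640 ± 159 CPM in siNC and 1565 ± 187 CPM in siXBP1. Desmoplakin (DSP), which ties keratins to desmosomes, had 462 ± 66.4 and 514 ± 71.2 CPM, plakoglobin (JUP) 782 ± 56.3 and 759 ± 109 CPM, and the desmosomal cadherin DSG2 272 ± 49.5 and 282 ± 45.7 CPM (n = 3 each). Transcripts of DSP, JUP and DSG2 were thus present in cells with CDH1 at 0.380 CPM. The desmosomal cadherins DSC2, DSC3 and DSG3 were lower, at means of 3.89, 3.29 and 0.0433 CPM. DSG1, DSG4 and DSC1 had no row and were not analysed here.

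Likeness of library profiles was measured as the root mean square difference of mean-centred log2 CPM over the 6 libraries, among 9598 genes with at least 10 CPM. KRT7 and KRT8 differed by 0.033, KRT7 and KRT17 by 0.041 and KRT17 and KRT18 by 0.058, where the median gene differed from KRT7 by 0.198. VIM differed from KRT7 by 0.0997 and from KRT80 by 0.060. KRT80 differed from KRT7, KRT8, KRT17 and KRT18 by 0.102, 0.0889, 0.0957 and 0.112, in each case more than from VIM. This measure depends on the size of the deviations as well as their pattern, and KRT80 and VIM both varied little. The median gene differed from KRT80 by 0.152 and from VIM by 0.146. Like the other abundant keratins, KRT80 was highest in siNC-1, whereas VIM was highest in siXBP1-2. The genes nearest to KRT8 were LMNA (0.013), TRIB3 (0.014) and RTL8A (0.020), and those nearest to KRT7 were BABAM1 (0.010), ARPC1B (0.016) and RPL27 (0.020). BOLA1 (0.022), IMPA2 (0.023) and SNU13 (0.024) were nearest to KRT17, and NDUFS6 (0.013), TAGLN (0.017) and PHB1 (0.019) to KRT18. PTPN6 (0.022), LIG1 (0.022) and PIK3R2 (0.023) were nearest to KRT80, and UNC45A, HOXC10 and MYBL2 (0.0088, 0.0094 and 0.0094) to VIM. No keratin was among the 3 nearest genes of another, since KRT7 and KRT8 each held place 24 in the other's order.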

How the data were processed

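The authors deposited whole-number read counts per NCBI Gene ID, not normalized, with 1 column for each of the 6 RNA-seq libraries. Per the submitters' processing notes, STAR 2.5.2a, featureCounts 1.5.0 and hg38 were used. How strand and multi-mapping reads were handled, and the annotation, were not given in the sources used here. ChIP-seq samples (2) were left out. Symbols came from RefSeq (GRCh38.p14), with 29 IDs unmatched. Of counts from 1 to 40, 78.4% were even, as when both mates of a pair are counted. Within groups, no 2 libraries agreed within sampling noise.

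Genes were kept with filterByExpr, scaled with TMM and tested with edgeR 4.0.16 (quasi-likelihood, R 4.3.3, two-sided, group as the only term), with Benjamini-Hochberg adjustment over 14337 genes and a threshold of 0.05. SEs are the log2 fold change divided by the square root of F. The procedure was tested on simulated data in which counts varied independently, with no component shared across genes. That simulation therefore does not show how the test behaves in the presence of the first component. Alternatives were size factors, library totals, other filters, DESeq2 1.42.0, the replicate number as a block, the first component as a covariate, and leaving out libraries. Members, lists and alternatives were chosen with earlier results of these data known. The naming rule took all 8 members, other list genes with at least 10 CPM (the highest 8 per list), and the 3 genes nearest to each abundant member. From the lists, only those that serve the text are named. Some genes below 10 CPM, among them low cell type markers, keratins and desmosomal cadherins, are named outside this rule. A marker of the fixed lists is not reported here.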

Additional observations from a re-analysis of the deposited data

How the results depend on the processing

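edgeR called 1 gene, XBP1, of 14337 over all 6 libraries. The count was 16 with DESeq2, 172 with the first component as a covariate and 702 without siNC-1 and siXBP1-3, and it ran from 0 to 1 with each library left out in turn. No member was called in any of these fits. With the covariate, which was computed from these same libraries, the log2 fold changes of KRT7 (0.034) and KRT80 (0.036) were above 0. Without both end libraries, those of KRT7 (0.19), KRT8 (0.12), KRT18 (0.13) and KRT80 (0.12) were above 0. With 1 library left out, estimates ran from -0.14 to 0.072 for KRT7, -0.18 to 0.020 for KRT8, -0.084 to 0.14 for KRT17, -0.18 to 0.028 for KRT18, -0.16 to 0.35 for KRT19, -0.071 to 0.060 for KRT80 and -0.028 to 0.073 for VIM. All 7 were above 0 without siNC-1 or without siXBP1-3, and all 7 below 0 without siXBP1-2. Size factors, library totals and other filters turned no direction; KRT19 was not tested with the filter of 1 CPM. The log2 ratio of VIM to the 7 keratins differed by 0.047 between groups, by -0.020 to 0.10 with 1 library left out and by -0.056 without both end libraries. Same-numbered siNC and siXBP1 libraries deviated together for numbers 1 (r = 0.60) and 3 (0.42) but not 2 (-0.36), so the numbers were not taken as pairs. With the replicate block edgeR called 1 gene, KRT8 had -0.082 and KRT17 0.013. Counting depth limits KRT5 and KRT19, and the spread between libraries limits the others.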
